A study of Rattus with 6 samples.

Results

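Genes of the integrated stress response and of serine and one-carbon synthesis were followed in the pituitary line RC-4B/C, derived from a rat adenoma, after treatment with aspirin (acetylsalicylic acid, ASA) or with the solvent dimethyl sulfoxide (DMSO). The members were the genes of the deposited exon table whose name equals 1 of 38 listed symbols. Of these, 34 had rows (289 exons), out of 12801 genes in the table, and Nupr1, Aldh18a1, Cbs and Cth had none and were not analysed here. There were 3 ASA and 3 DMSO libraries of polyadenylated RNA, and both groups are the same line with no genetic change named. The labels give neither dose nor duration. Nor do they say whether each library had a culture of its own, so p-values measure only the spread between these libraries, which may be technical. The series also names the GH3 line, not analysed here.

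The integrated stress response is a shared route by which cells slow protein synthesis. Any of several kinases phosphorylates the alpha subunit of the initiation factor eIF2, general translation falls, and a few messages, above all that of the transcription factor ATF4, are translated better. ATF4 and its partners then switch on genes for amino acid supply, for feedback on the pathway and, under lasting stress, for cell death, and the enzymes of serine and one-carbon synthesis are among its known targets.

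Values are RPKM, the reads of a gene's listed exons divided by their summed length in kilobases and by the library's depth in units of 1000000 reads. All 27 members with every exon listed had a summed length that is a multiple of 3, so these are coding lengths and untranslated regions do not enter. Depth was 66492446 to 92073423 reads in ASA and 82189699 to 94486062 reads in DMSO libraries, and the fewest reads behind a member's value in any library were 117 (Atf3). ASA replicate 2 stood apart from the other libraries, with 497 exons at 0 reads against 4 to 13 in the other 5, and the counts of members and of exons are also given without it. In bulk samples, fewer cells with a transcript and less of it per cell cannot be told apart. All 6 markers fixed for a lactotroph (prolactin-secreting) line had rows, though not all are particular to such cells. Prl lay between 14037 and 62101 RPKM in ASA and between 22006 and 62170 RPKM in DMSO libraries. Of the other 5, Neurod4 (21.5 to 31.5 RPKM in ASA, 61.0 to 93.9 RPKM in DMSO) and Chga (93.7 to 104 RPKM in ASA, 125 to 184 RPKM in DMSO) were lower in every ASA library than in any DMSO library, and the ranges of Pou1f1, Chgb and Scg2 overlapped. Of the 6 fibroblast markers only Dcn and Lum had rows. Their summed level was 2138 to 3279 RPKM in ASA and 1104 to 1164 RPKM in DMSO libraries, almost all of it Dcn, and Col1a1, Col1a2, Col3a1 and Pdgfra had no row. The part of these marker differences in the results below was not tested. Of 5 macrophage markers only Cd14 had rows (3.28 to 19.3 RPKM in ASA, 18.2 to 34.5 RPKM in DMSO), and none of the 4 endothelial or 3 folliculostellate markers did. Of 5 gonadotroph and corticotroph markers 3 had rows, with a summed level of 3.19 to 5.52 RPKM in ASA and 3.49 to 4.85 RPKM in DMSO libraries.

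The genes that rose with ASA were 4 of the 6 transcription factors downstream of eIF2, both phosphatase subunits that feed back on it, the pseudokinase gene Trib3, 2 of 5 regulators of translation and mTORC1, and Asns, while no serine synthesis gene and none of the 4 kinase genes passed the test. Of the 34 members, 10 rose and 0 fell (limma on log2(RPKM + 0.1), p adjusted by Benjamini-Hochberg over 12502 genes, threshold 0.05), against 6.21% of all genes tested that rose and 4.99% that fell. That is 29.4% of the members. At an unadjusted p under 0.05 there were 14 members (41.2%), all higher, against 30.02% of all genes in either direction. On the recovered reads, limma-voom called 8 higher and 0 lower (6.09% and 4.97% of all genes). The median log2 fold change was 0.40 over the members and -0.06 over all genes tested. The 3 ASA libraries lay above all 3 DMSO libraries in 13 members, against 19.9% of all genes tested, and below them in 2 (Eif2ak4 and Sesn1), against 18.8%.

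The calls depended on single libraries. Without ASA replicate 2, 12 members rose and 0 fell, against 12.8% and 8.07% of all genes. Without DMSO replicate 2, 9 rose and 0 fell (2.5% and 2.55% of all genes), and without ASA replicate 1, 8 rose and Sesn3 fell (7.86% and 8.3%). No member passed in the limma fits that left out ASA replicate 3 (0.0% of all genes in each direction), DMSO replicate 1 (0.392% and 0.336%) or DMSO replicate 3 (0.0%), although 13 members (38.2%) in each of them had an unadjusted p under 0.05, against 23.4%, 20.6% and 18.7% of all genes. The smallest adjusted p of any gene in those limma fits was 0.0806, 0.044 and 0.0789. In each of the 10 genes, as in 100% of the 776 genes that rose, every ASA library lay above every DMSO library. Their log2 fold changes therefore had to stay positive in all 6 fits, whichever library was left out. With 3 other analysis settings the number of members called also moved by over 1.5 times, to 5 without a mean-variance trend (9.03% of all genes called), 6 with a gene taken as its median exon (7.58%) and 18 with library weights (46.0%). The weighted fit leaned on DMSO replicate 3, with a weight of 8.71, against 0.10 (ASA replicate 2) to 1.91 (ASA replicate 3) for the other libraries.

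**Figure D1:**
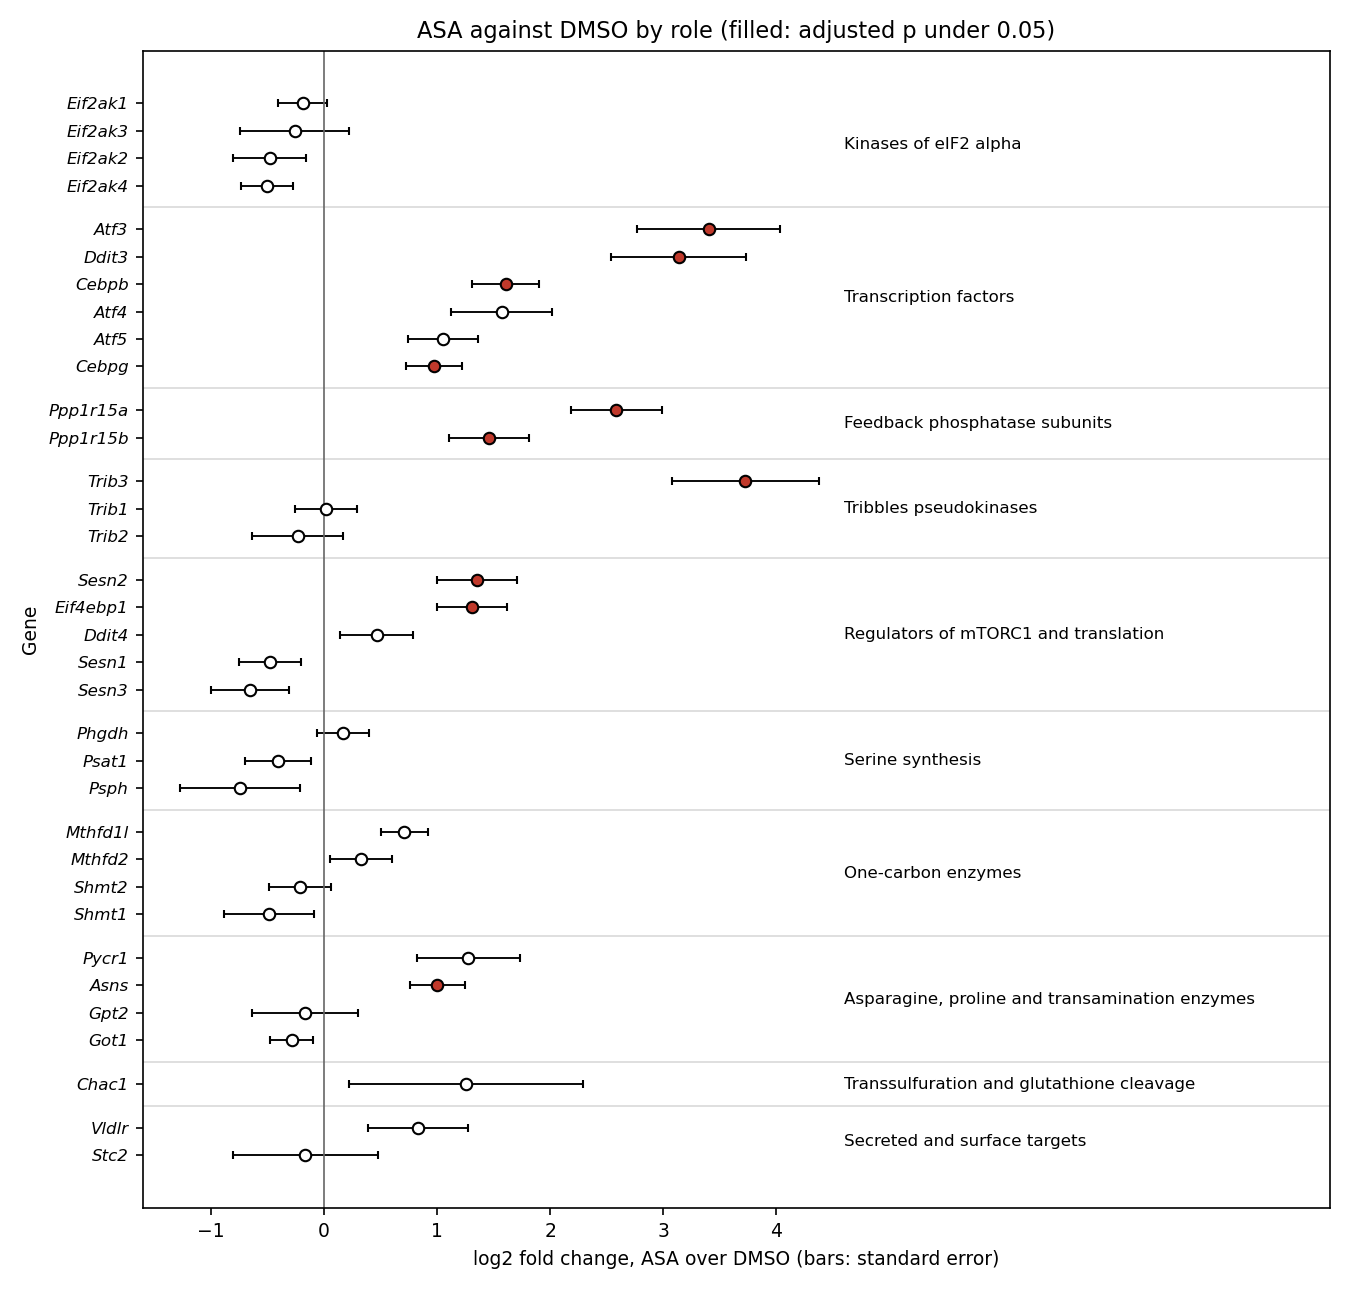
Log2 fold change of ASA over DMSO (x axis) for the 34 genes, grouped by role, with standard errors from limma as bars. Filled points mark the 10 genes with an adjusted p under 0.05, which lie between 0.97 (Cebpg) and 3.73 (Trib3), while the 4 kinase genes and Psat1 and Psph lie below 0.

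None of the 4 kinases that start the response passed (limma, 0 at an unadjusted p under 0.05, and 0 with limma-voom). Eif2ak4 encodes GCN2, which senses uncharged tRNA, and had 25.0, 15.9 and 23.6 RPKM in the ASA libraries, against 30.9, 29.98 and 29.2 RPKM in the DMSO libraries. The groups did not overlap, ASA being lower, but the log2 fold change of -0.50 had a 95% interval of -1.04 to 0.03 and an adjusted p of 0.187. Eif2ak3, which encodes PERK, the kinase of endoplasmic reticulum stress, had 39.9, 12.6 and 47.9 RPKM in the ASA libraries, against 28.9, 43.6 and 33.2 RPKM in the DMSO libraries. ASA replicate 2 was the lowest library there and the other ASA libraries fell within or above the DMSO range, so the log2 fold change of -0.26 became 0.33 without it (adjusted p 0.741 with all libraries and 0.282 without ASA replicate 2). Eif2ak1 (HRI, the heme-regulated kinase) and Eif2ak2 (PKR, activated by double-stranded RNA) were at log2 fold changes of -0.19 (adjusted p = 0.586) and -0.48 (adjusted p = 0.352). Transcript levels say nothing of the activity of these kinases.

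Among the transcription factors 4 of 6 rose, and in all 6 the ASA libraries lay above the DMSO libraries. Ddit3, which encodes CHOP, a factor tied to cell death under lasting stress, had RPKM values of 716, 3599 and 2878 in ASA replicates 1, 2 and 3, against 166, 344 and 189.7 in DMSO replicates 1, 2 and 3. ASA replicate 1 was much the lowest ASA library and still lay well above the highest DMSO library. The fold of the log2 means was 8.81 (log2 fold change 3.14 ± 0.60 SE, adjusted p = 0.0252). It ranged from 6.49 without ASA replicate 2 to 14.5 without ASA replicate 1, with a call in 3 of the 6 fits that left out a library (adjusted p between 0.0112 and 0.115). Ddit3 lies on chromosome 7, from 70584078 to 70584883 in Rnor_6.0 (first to last listed exon, as for the positions below).

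Atf3, an immediate stress factor that ATF4 induces, was the member with the lowest DMSO level among the genes that rose, at 41.4, 70.5 and 192 RPKM in the ASA libraries, against 4.09, 15.1 and 7.39 RPKM in the DMSO libraries. The ASA libraries differed among themselves more than 4-fold, with ASA replicate 3 highest. Only 2 of its 3 annotated exons were listed. It was 10.6-fold higher (log2 fold change 3.40 ± 0.63 SE, adjusted p = 0.0233), and 6.93-fold without ASA replicate 3, a fit in which no gene tested was called. The fold was 14.9 without ASA replicate 1, and 3 of the 6 fits that left out a library called Atf3.

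Cebpb and Cebpg encode leucine zipper proteins that pair with ATF4. Cebpb had 204, 304 and 199 RPKM in the ASA libraries, against 59.2, 114 and 64.4 RPKM in the DMSO libraries, 3.05-fold higher (adjusted p = 0.0231). Cebpg had 115, 91.4 and 155 RPKM in the ASA libraries, against 54.3, 74.0 and 53.2 RPKM in the DMSO libraries, 1.96-fold higher (adjusted p = 0.0452). The call of Cebpg was lost with limma-voom (adjusted p = 0.0517), the median exon (0.056) and no mean-variance trend (0.0669), and in 5 of the 6 fits that left out a library, all but the one without ASA replicate 2 (0.017 to 0.195 over the 6). DMSO replicate 2 was the DMSO library nearest to the ASA range in both.

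Atf4 itself, the central factor of the response, had RPKM values of 897, 3204 and 1459 in ASA replicates 1, 2 and 3, against 450.4, 709 and 499.9 in DMSO replicates 1, 2 and 3. ASA replicate 2 was far above the other ASA libraries, and the groups did not overlap. The log2 fold change of 1.57 ± 0.45 SE was short of the threshold in the fit of all libraries (adjusted p = 0.0616). A call was made without ASA replicate 2 (2.11-fold, adjusted p = 0.0406) and without ASA replicate 1 (3.99-fold, adjusted p = 0.026), over a range of 0.026 to 0.207 in the 6 fits. Of its exon values 16.7% were not whole reads (within 0.02 read). Atf5, a related factor also translated under eIF2 phosphorylation, had 972, 753 and 756 RPKM in the ASA libraries, against 281, 632 and 349.6 RPKM in the DMSO libraries and an adjusted p of 0.0681. It was called without DMSO replicate 2 (2.62-fold, adjusted p = 0.0329, and 0.0329 to 0.245 over the 6 fits).

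**Figure D2:**
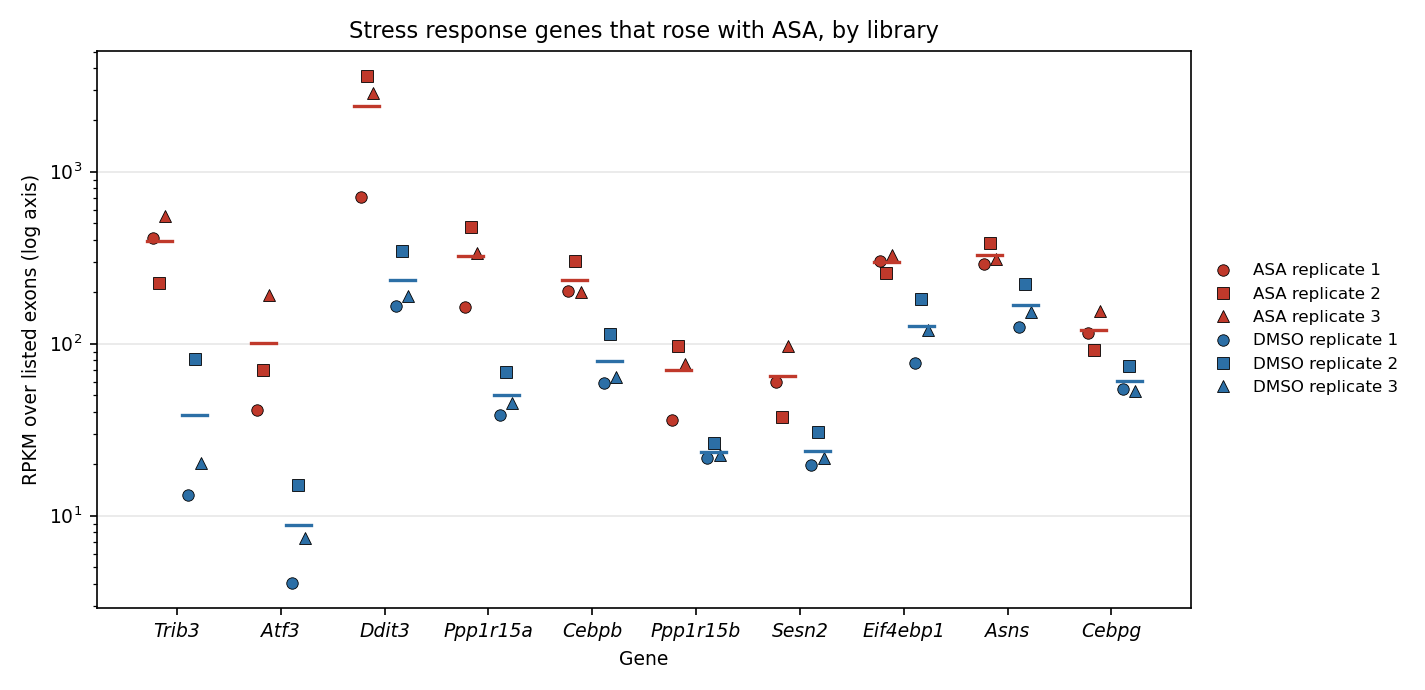
RPKM over listed exons (log y axis) in each library for the 10 genes that rose, ordered by fold change; symbols mark replicates 1, 2 and 3 and short lines the group means. Every red ASA point lies above every blue DMSO point of its gene, and DMSO replicate 2 (blue square) is the highest DMSO library in all 10.

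Both feedback subunits rose. Ppp1r15a, which encodes GADD34 and brings protein phosphatase 1 to eIF2 alpha, had 163, 476 and 335 RPKM in the ASA libraries, against 38.7, 68.0 and 45.2 RPKM in the DMSO libraries. It was 6.01-fold higher with ASA (325 ± 157 RPKM in ASA and 50.6 ± 15.4 RPKM in DMSO libraries, SD, n = 3 each, limma adjusted p = 0.0159), the smallest adjusted p of the 34 members. Ppp1r15b, the subunit known for its constant expression, had 36.2, 97.4 and 76.0 RPKM in the ASA libraries, against 21.7, 26.4 and 22.4 RPKM in the DMSO libraries. The DMSO libraries were close to each other, the ASA libraries were not, and the fold was 2.75 (adjusted p = 0.042). Its call was lost with TMM scaling (adjusted p = 0.0533), no mean-variance trend (0.0574), the median exon (0.0507) and without DMSO replicate 2 (0.0886). Ppp1r15a lies on chromosome 1, 101511969 to 101514145, and Ppp1r15b on chromosome 13, 49933598 to 49938142.

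Of the 3 tribbles pseudokinase genes only Trib3 passed. Trib3, an ATF4 and CHOP target whose protein dampens ATF4 and AKT, had RPKM values of 409, 227 and 553 in ASA replicates 1, 2 and 3, against 13.2, 81.7 and 20.4 in DMSO replicates 1, 2 and 3. DMSO replicate 2 was far above the other DMSO libraries, and ASA replicate 2 was the lowest ASA library. The fold was 13.2 (log2 fold change 3.73 ± 0.65 SE, adjusted p = 0.0206), the largest of the members. It ranged from 9.09 without DMSO replicate 1 to 22.6 without DMSO replicate 2, with a call in 3 of the 6 fits that left out a library (adjusted p between 0.0157 and 0.105). Trib3 lies on chromosome 3, 147814272 to 147818919. Trib1, whose protein guides C/EBP alpha to degradation, had 12.6, 23.4 and 15.6 RPKM in the ASA libraries, against 14.9, 17.1 and 17.5 RPKM in the DMSO libraries, and Trib2, a close relative, had 128, 46.0 and 113 RPKM in the ASA libraries, against 109.8, 75.8 and 130.1 RPKM in the DMSO libraries. Their groups overlapped, with log2 fold changes of 0.02 (95% interval -0.62 to 0.65) and -0.23 (-1.17 to 0.70). Both intervals lie below that of Trib3, 2.22 to 5.24, and the difference between the genes was not tested.

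Among the regulators of mTORC1 and translation 2 of 5 rose. Sesn2, a stress-induced sestrin that senses leucine and holds back mTORC1, had 59.6, 37.7 and 96.4 RPKM in the ASA libraries, against 19.6, 30.5 and 21.6 RPKM in the DMSO libraries. It was 2.55-fold higher with an adjusted p of 0.0495, close to the threshold, and its call was lost in 5 of the 6 fits that left out a library, all but the one without ASA replicate 2 (adjusted p between 0.0134 and 0.185). The call was also lost with limma-voom (adjusted p = 0.0507), an added value of 0.01 (0.0509), the median exon (0.0583) and no mean-variance trend (0.0672). Eif4ebp1, which encodes the translation repressor 4E-BP1 and is an ATF4 target, had 304, 259 and 329 RPKM in the ASA libraries, against 76.8, 182 and 120.5 RPKM in the DMSO libraries, 2.48-fold higher (adjusted p = 0.039). Its call was lost with no mean-variance trend (adjusted p = 0.0565). It held in only 2 of the 6 fits that left out a library, those without ASA replicate 2 or DMSO replicate 2 (0.0283 to 0.157 over the 6). The other sestrins had the opposite sign. Sesn1, a p53 target, had 5.81, 4.22 and 6.11 RPKM in the ASA libraries, against 8.33, 6.55 and 7.55 RPKM in the DMSO libraries, with ASA below DMSO in every library and an adjusted p of 0.282. Sesn3, a FoxO target, had 58.3, 22.6 and 28.2 RPKM in the ASA libraries, against 59.6, 49.1 and 50.1 RPKM in the DMSO libraries, where ASA replicate 1 lay within the DMSO range. Its adjusted p was 0.241, and 0.0266 without that library (2.08-fold lower). Ddit4, which encodes the mTORC1 inhibitor REDD1, had 225, 322 and 220.3 RPKM in the ASA libraries, against 120.4, 284 and 177 RPKM in the DMSO libraries, and DMSO replicate 2 exceeded 2 of the 3 ASA libraries (adjusted p = 0.368).

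None of the 3 serine synthesis genes passed the test in either direction (limma, 0 at an unadjusted p under 0.05, and 0 with limma-voom). Phgdh, the first enzyme of the route from 3-phosphoglycerate, had 22.5, 18.2 and 23.6 RPKM in the ASA libraries, against 15.6, 19.5 and 22.4 RPKM in the DMSO libraries. Psat1, the transaminase of the second step, had 37.4, 19.4 and 35.7 RPKM in the ASA libraries, against 42.1, 32.4 and 44.5 RPKM in the DMSO libraries. Psph, the phosphatase of the last step, had 42.8, 8.89 and 33.2 RPKM in the ASA libraries, against 38.4, 42.2 and 37.2 RPKM in the DMSO libraries. The groups overlapped in all 3 genes, and ASA replicate 2 was the lowest ASA library in each, by most in Psph. The log2 fold changes were 0.17 for Phgdh (95% interval -0.37 to 0.70), -0.41 for Psat1 (-1.09 to 0.27) and -0.75 for Psph (-1.99 to 0.50), with limma adjusted p of 0.654, 0.38 and 0.379. A log2 fold change of 1 lies outside each of these intervals, and one of -1 lies outside that of Phgdh but inside those of Psat1 and Psph. Without ASA replicate 2 the log2 fold changes of Phgdh, Psat1 and Psph were 0.28, -0.11 and -0.05.

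The one-carbon enzymes, which take up the carbon released from serine, did not pass with all libraries (limma, 1 of 4 at an unadjusted p under 0.05, and 0 with limma-voom), although TMM scaling called Mthfd1l (adjusted p = 0.0339). Library weights, with which 46.0% of all genes were called, called Mthfd1l and Mthfd2 (0.00205 and 0.0072). Shmt2, the mitochondrial hydroxymethyltransferase, had 411, 214 and 319 RPKM in the ASA libraries, against 296, 424 and 348 RPKM in the DMSO libraries, and Shmt1, its cytosolic counterpart, had 14.8, 9.33 and 13.4 RPKM in the ASA libraries, against 26.1, 9.59 and 20.5 RPKM in the DMSO libraries. Their groups overlapped. Mthfd2, the mitochondrial methylene-tetrahydrofolate dehydrogenase and a known ATF4 target, had 33.3, 23.8 and 40.5 RPKM in the ASA libraries, against 21.8, 33.2 and 22.5 RPKM in the DMSO libraries. DMSO replicate 2 equalled ASA replicate 1 to within 1 RPKM, and the log2 fold change was 0.32 (adjusted p = 0.452). Mthfd1l, the mitochondrial formate-producing synthetase, had 66.4, 52.3 and 71.8 RPKM in the ASA libraries, against 40.1, 32.8 and 43.1 RPKM in the DMSO libraries. Its groups did not overlap, the log2 fold change was 0.71 ± 0.20 SE (adjusted p = 0.0631), and it passed without ASA replicate 2 (1.80-fold, adjusted p = 0.019, and 0.019 to 0.19 over the 6 fits). Unlike most members that were higher with ASA, DMSO replicate 2 was its lowest DMSO library.

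**Figure D3:**
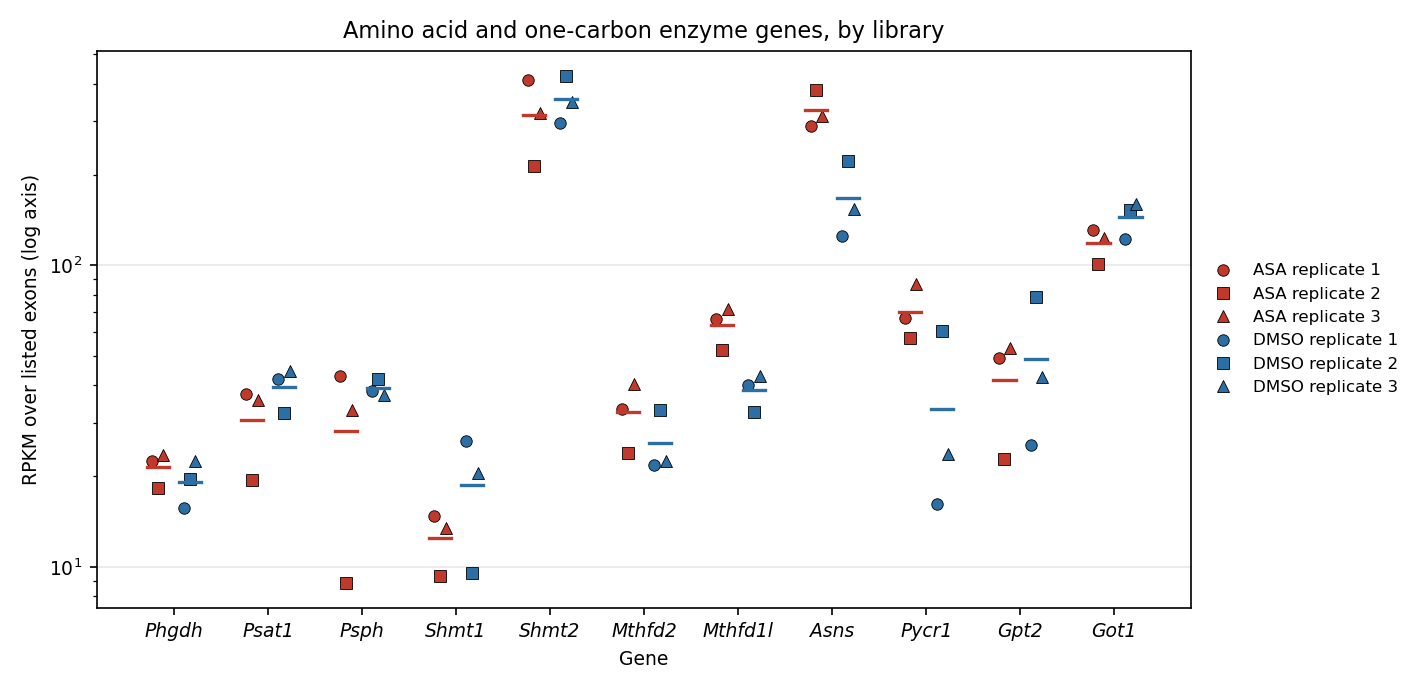
RPKM over listed exons (log y axis) in each library for 11 genes of serine, one-carbon, asparagine, proline and transamination enzymes; symbols mark replicates and short lines the group means. ASA (red) lies above DMSO (blue) without overlap in Mthfd1l and Asns, and ASA replicate 2 (red square) is the lowest ASA library in all of the 11 except Asns.

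Of the enzymes of asparagine, proline and transamination, Asns passed. Asns, asparagine synthetase and a standard readout of the amino acid response, had 289.6, 383 and 311 RPKM in the ASA libraries, against 126, 222 and 154 RPKM in the DMSO libraries, 2.003-fold higher (328 ± 48.6 RPKM in ASA and 167 ± 49.5 RPKM in DMSO libraries, SD, n = 3 each, limma adjusted p = 0.0423). Its call was lost with TMM scaling (adjusted p = 0.0568), no mean-variance trend (0.0626) and the median exon (0.0535). Pycr1, which makes proline in mitochondria, had 66.7, 57.4 and 86.6 RPKM in the ASA libraries, against 16.1, 60.6 and 23.7 RPKM in the DMSO libraries. DMSO replicate 2 lay inside the ASA range, and the 2.42-fold difference missed the threshold (adjusted p = 0.108). A call was made without DMSO replicate 2 (3.53-fold, adjusted p = 0.0268, and 0.0268 to 0.302 over the 6 fits). Gpt2, mitochondrial alanine transaminase, and Got1, cytosolic aspartate transaminase, were at log2 fold changes of -0.17 (adjusted p = 0.829) and -0.29 (adjusted p = 0.342).

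Chac1, which cleaves glutathione, spread more than any other member. It had 69.2, 12.2 and 212 RPKM in the ASA libraries, against 10.2, 63.7 and 20.1 RPKM in the DMSO libraries, with ASA replicate 2 under 2 of the DMSO libraries and DMSO replicate 2 close to ASA replicate 1. The log2 fold change was 1.26 ± 1.04 SE (adjusted p = 0.442), and the fold ranged from 1.23 without ASA replicate 3 to 5.12 without ASA replicate 2, with no call in any of the 6 fits. Stc2, a secreted glycoprotein of the unfolded protein response, had 58.7, 27.0 and 101 RPKM in the ASA libraries, against 27.7, 136 and 60.3 RPKM in the DMSO libraries, and Vldlr, a lipoprotein receptor, had 40.5, 30.5 and 49.98 RPKM in the ASA libraries, against 13.5, 45.4 and 17.8 RPKM in the DMSO libraries. DMSO replicate 2 was the highest of all 6 libraries for Stc2, and second to ASA replicate 3 for Vldlr. Neither passed (adjusted p of 0.88 and 0.249).

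DMSO replicate 2 lay above the other DMSO libraries in many of these genes. It was the highest DMSO library in 22 of the 34 members, against 36.4% of all genes tested, and in all 10 members that rose, against 54.9% of all genes that rose. Its ratio to the mean of DMSO replicates 1 and 3 was 1.20 (Ppp1r15b) to 4.87 (Trib3) among those 10, and 4.21, 3.09, 3.04 and 2.89 for Chac1, Stc2, Pycr1 and Vldlr. Relative to the DMSO mean, the members' median log2 level was 0.36, 0.19 and 0.70 in ASA replicates 1, 2 and 3, against -0.26, 0.35 and -0.06 in DMSO replicates 1, 2 and 3. By this median DMSO replicate 2 lay between the ASA libraries.

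Without both libraries numbered 2, with 2 libraries left in each group, 17 members rose and 1 fell, against 13.8% and 11.3% of all genes tested. Those added to the 10 were Atf4, Atf5, Chac1, Mthfd1l, Mthfd2, Pycr1 and Vldlr, all higher, and Shmt1, lower. Trib3 was then 28.9-fold higher, Chac1 8.40-fold, Pycr1 3.87-fold and Mthfd2 1.65-fold. In each of these genes DMSO replicate 2 was the highest DMSO library and ASA replicate 2 the lowest ASA library. Leaving both out raises such folds by construction. The libraries left out stood apart in these same values, so this fit is no separate support. Phgdh, Psat1 and Psph passed in neither direction in this fit either, with log2 fold changes of 0.30, -0.24 and -0.0014 (adjusted p of 0.353, 0.251 and 0.996).

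**Figure D4:**
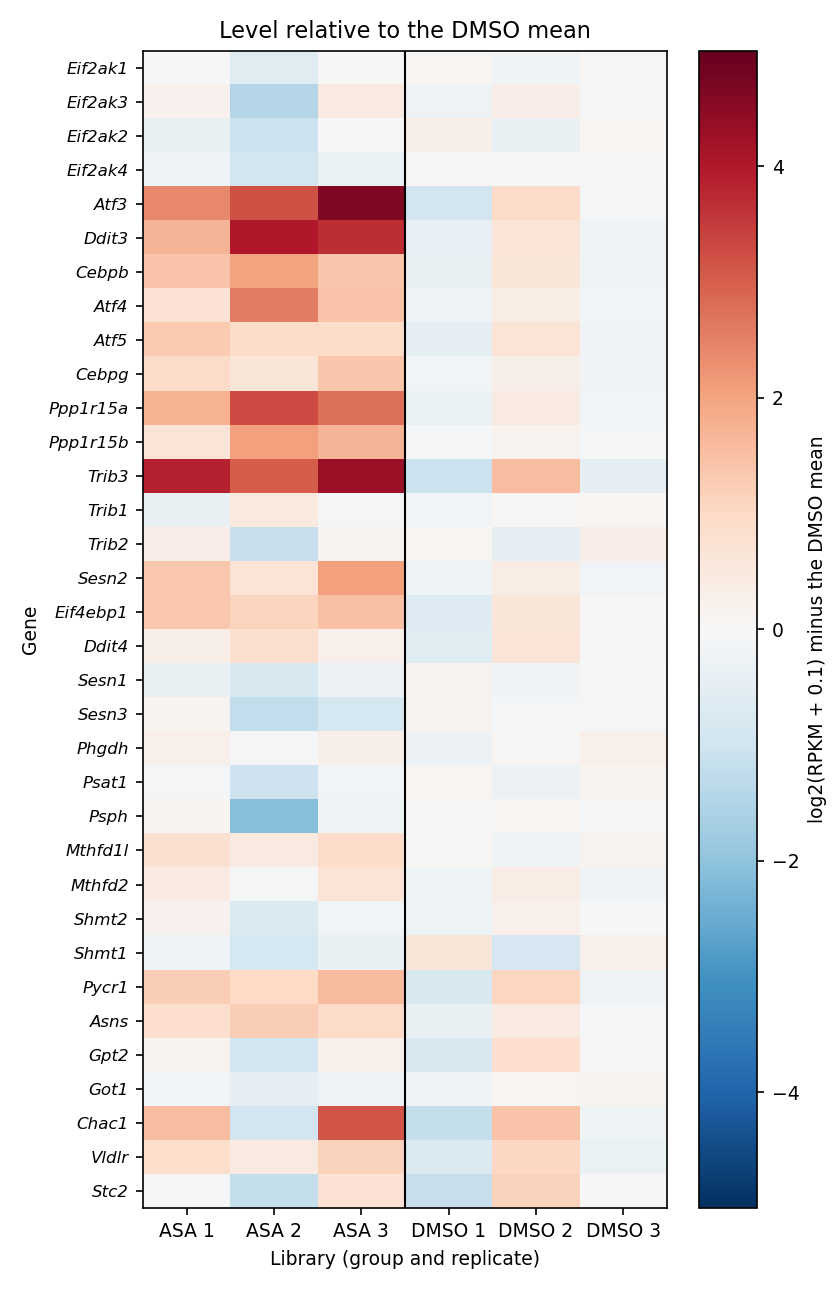
Level of each gene (rows, by role) in each library (columns), as log2(RPKM + 0.1) minus the mean of the DMSO libraries. The ASA columns are red for the transcription factors, feedback subunits and Trib3. The DMSO 2 column is red for 22 genes in which it is the highest DMSO library, and slightly above the mean for Trib1 (0.06), Phgdh (0.04) and Got1 (0.08). The ASA 2 column is blue for many genes, most for Psph (-2.13) and Eif2ak3 (-1.45), and also for the other kinase genes and Chac1 (-0.94).

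The members with few listed exons were those in which ASA replicate 2 was most often above the other ASA libraries. In the 14 members with 1 to 3 listed exons its log2 level minus the mean of ASA replicates 1 and 3 had a median of 0.17, and 7 of the 14 were positive. In the 9 members with 4 to 10 listed exons the median was -0.84 and none was positive, and in the 11 with over 10 it was -0.61 and 1, Asns, was positive. Over all genes tested the order was another, with the lowest median at 1 to 3 exons (-0.48, -0.28 and -0.33 over 3390, 5018 and 4094 genes), and Chac1, with 3 exons, was the lowest member. The members with few exons that were highest in ASA replicate 2 include Atf4, Ddit3 and Ppp1r15a, at 2.72, 2.003 and 1.91 times the mean of the other ASA libraries. The lowest were Chac1 and Psph, at 0.087 and 0.234 times. The 5′-most listed exon was set against the 3′-most, per length, in genes with at least 4 listed exons. Relative to the DMSO mean, the median log2 ratio over 20 members was 0.12, -0.29 and -0.05 in ASA replicates 1, 2 and 3, against -0.01, 0.06 and -0.07 in DMSO replicates 1, 2 and 3. Over all 9112 such genes it was -0.13 in ASA replicate 2. That library had the lowest ratio in 11 of the 20 members and in 4034 of the 9112 genes. The members did not all go one way, since the ratio in ASA replicate 2 was below all other libraries in Gpt2 (0.164) and Vldlr (0.103) and above them in Mthfd2 (1.32). The part of this in the differences between libraries was not tested.

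**Figure D5:**
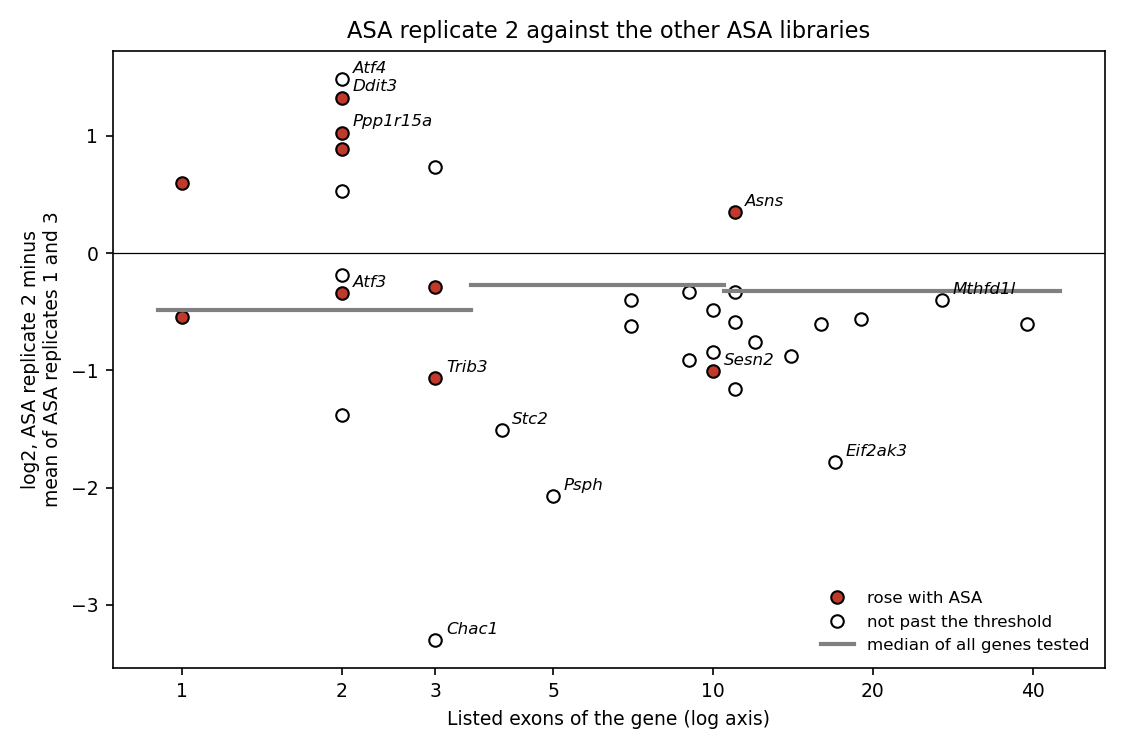
Log2 difference between ASA replicate 2 and the mean of ASA replicates 1 and 3 (y axis) against the number of listed exons (log x axis) for the 34 genes, with grey lines for the medians of all genes tested in 3 ranges of exon number. Points reach from 1.49 (Atf4) to -3.30 (Chac1), and above 3 listed exons only Asns lies over 0.

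Exon by exon, the genes that rose were positive throughout. Exons of a gene share their libraries and are no replicates, so the counts describe the gene. Of the 289 exons, 13 rose and 0 fell in limma over 117759 exons, against 1.62% and 0.908% of all exons tested. They were all 3 exons of Trib3, both of Ddit3 and of Ppp1r15a, the 1 listed exon of Cebpb, 1 of 2 of Atf3 and 4 of 27 of Mthfd1l. Without ASA replicate 2, 61 rose and 1, of Eif2ak4, fell (10.3% and 6.42% of all exons), among them 25 of 27 exons of Mthfd1l, 10 of 10 of Sesn2 and 8 of 11 of Asns. The exon log2 fold changes of Trib3 lay between 3.64 and 3.86, and those of Asns between 0.77 and 1.11. All 27 exons of Mthfd1l (0.13 to 1.16) and all 19 of Vldlr (0.29 to 1.30) were positive, and none of the 39 exons of Eif2ak4, the 10 of Sesn1 or the 10 of Sesn3 was.

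A shift of single exons against the rest of their gene was not detected. Limma's diffSplice, adjusted over 116221 exons, called 0 of the 287 exons of members with at least 2 listed, against 0.0559% of all exons tested. An unadjusted p under 0.05 was reached by 3 of the 287, or 1.05%, against 1.69% of all exons tested. The widest spread of exon log2 fold changes among the members was in Mthfd2, from -0.87 to 0.67, which narrowed to 0.02 to 0.66 without ASA replicate 2.

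By the DMSO mean the members with the highest coding-length RPKM were Atf4 (553 ± 137), Atf5 (421 ± 186), Shmt2 (356 ± 64.5) and Ddit3 (233 ± 96.5 RPKM, SD, n = 3). Atf4, Atf5 and Shmt2 differ from their neighbours in this order by less than the larger SD, and Shmt2 lies above Ddit3 by more than either. The lowest were Sesn1 (7.48 ± 0.892) and Atf3 (8.85 ± 5.63). In ASA libraries Ddit3 was the highest (2398 ± 1500.3), ahead of Atf4 (1853 ± 1203) by less than either SD.

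Other genes of the pathway were read from 5 lists, to be set against the 6.21% of all genes tested that rose and the 4.99% that fell. Of 30 tested genes of the ATF4, CHOP and amino acid response outside the members, 4 rose and 0 fell, with a median log2 fold change of 0.53. Gdf15, a stress-induced secreted cytokine, had 241, 604 and 352 RPKM in the ASA libraries, against 32.3, 128 and 43.5 RPKM in the DMSO libraries, 6.58-fold higher (adjusted p = 0.0273), and DMSO replicate 2 was again the highest DMSO library. Gadd45a, a growth arrest gene, the tRNA exporter gene Xpot and the protease gene Rhbdd1 rose 3.72-fold, 1.80-fold and 1.88-fold. Of 12 amino acid transporters 2 rose and 0 fell (median 0.15). These were the arginine and lysine carrier Slc7a1, with 50.6, 65.4 and 63.2 RPKM in the ASA libraries, against 23.2, 33.2 and 24.7 RPKM in the DMSO libraries (2.22-fold, adjusted p = 0.0239), and the glycine carrier Slc6a9 (1.88-fold, adjusted p = 0.049). Slc3a2, the shared chain of several amino acid exchangers, had a fold of 2.06 that missed the threshold (adjusted p = 0.0526). Slc36a4, next by p, was lower with ASA without passing (log2 fold change -0.66, limma adjusted p = 0.0978).

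Of 21 synthetase genes of tRNA charging, all cytosolic but the mitochondrial Fars2, 1 rose and 0 fell, with a median of -0.01. Of all genes tested 6.21% rose and 4.99% fell. The synthetase gene that rose was Wars1, for tryptophan, with 185, 134 and 157 RPKM in the ASA libraries, against 77.7, 102 and 79.9 RPKM in the DMSO libraries (1.83-fold, adjusted p = 0.0362). The seryl synthetase gene Sars1 came next with 432, 411 and 506 RPKM in the ASA libraries, against 266, 373 and 298 RPKM in the DMSO libraries (adjusted p = 0.117). Rars1 and Farsa followed and were lower without passing (log2 fold change -0.48 each, limma adjusted p of 0.156 and 0.189). None of the 16 genes of eIF2, its exchange factor and regulators passed (limma, median -0.16, with 4 at an unadjusted p under 0.05, where 30.02% of all genes were, and 0 calls with limma-voom). The lowest p among them were those of Ppp1cc, a catalytic subunit of protein phosphatase 1 (log2 fold change -0.57, adjusted p = 0.0582), and Dele1, which relays mitochondrial stress to HRI (0.62, adjusted p = 0.0633). Ppp1ca and Eif2s1 followed, both lower without passing (-0.57 and -0.62, limma adjusted p of 0.103 and 0.11). Of 18 genes of glycine cleavage and the folate cycle 1 rose and 1 fell (median 0.05). Sfxn1, a mitochondrial serine carrier, had 150.4, 182 and 156 RPKM in the ASA libraries, against 71.1, 104 and 85.9 RPKM in the DMSO libraries (1.89-fold higher, adjusted p = 0.0326). Mat2b and Mtfmt were higher without passing (log2 fold changes of 0.82 and 0.52, limma adjusted p of 0.0664 and 0.123).

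Over the 5 lists, with Cars on 2 of them, 8 of 96 tested genes rose and 1 fell with all libraries, against 6.21% and 4.99% of all genes tested. Without both libraries numbered 2, where 13.8% of all genes were higher and 11.3% lower, the list of ATF4, CHOP and amino acid response genes had 13 higher and 1 lower, the synthetases 7 higher, the transporters 4 higher, the folate list 3 higher and 4 lower, and the eIF2 list 2 higher and 1 lower.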

How the data were processed

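RNA-seq values of 6 libraries of the rat line RC-4B/C, 3 ASA and 3 DMSO, were analysed, with replicates numbered in accession order. The authors deposited log2 RPKM values, 1 row per exon (118147 rows) in Rnor_6.0 coordinates. Per the submitters' processing notes, the tools were edgeR 3.26.8, Bowtie2, TopHat2 2.1.0, Trim Galore 0.4.1 and cutadapt 1.14, in roles not stated. How reads were counted, with or without strand, and against which annotation is not given in the sources used here, so reads of antisense genes cannot be told apart. No listed exon of a member overlapped a listed exon of another gene on either strand. Genes without rows are not covered by that check.

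The log was undone, a constant of 0.00292 RPM (reads per 1000000) removed and reads recovered (95.7% to 96.8% whole within 0.02 read). Depth was 66492446 to 94486062 reads per library. Gene values were summed over listed exons per kilobase. The test was limma 3.58.1 in R 4.3.3 (two-sided, eBayes with trend) on log2(RPKM + 0.1). It covered 12502 genes whose mean reached 0.5 RPKM, and calls were made at 0.05 after Benjamini-Hochberg adjustment. A fold is the difference of group means on that scale, which understates the change of low genes. Exons were fitted likewise, with diffSplice for exon usage, and both fits were tested on simulated data. No simulated library stood apart from its group, so these tests do not cover libraries such as ASA replicate 2. The deposited unit is log2 RPKM, so edgeR's quasi-likelihood count model was not run, while limma-voom was run on the recovered reads. Alternatives were other added values, filters, scaling, variance models, library weights (gene-by-gene, since the REML estimate did not converge), gene values and left-out libraries.

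The members and lists were chosen with earlier results of these data known. By the rule for named genes, library values were given for members called with all libraries or without ASA replicate 2 and for 11 genes whatever their result, and up to 4 genes per pathway list were taken by smallest p. Library values of other members were added after they were seen. A gene that this rule takes is not reported here.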

Additional observations from a re-analysis of the deposited data

How the results depend on the processing

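Against 1400 genes, 10 members and 9 genes of the pathway lists called with all libraries, the counts were within 1.5 times of these with other added values, filters, TMM scaling, the constant left in and limma-voom. Without a mean-variance trend 5 members and 4 list genes were called, and with the median exon 6 members. Library weights called 5745 genes, 18 members and 50 list genes, and leaving out both libraries numbered 2 called 3149 genes, 18 members and 34 list genes, with a median log2 fold change of the members of 0.73. Leaving out 1 library gave 0 to 2618 genes, 0 to 12 members, 0 to 19 list genes and 0 to 62 member exons. The cause was not tested. No called member changed sign under any of the 17 settings. Since the groups of these 10 did not overlap, leaving out or weighting libraries could not have changed it.

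Signs turned only in members without a call. The log2 fold change of Phgdh was -0.0296 with the median exon and that of Trib1 -0.0022 with limma-voom. With library weights the values were 0.39 for Eif2ak3, -0.17 for Trib1, 0.28 for Gpt2 and 0.57 for Stc2. Without both libraries numbered 2 they were 0.50 for Eif2ak3, -0.20 for Trib1, 0.0083 for Trib2, 0.18 for Shmt2, 0.64 for Gpt2 and 0.91 for Stc2. Leaving out 1 library gave -0.30 to 0.0135 for Eif2ak1, -0.62 to 0.33 for Eif2ak3, -0.23 to 0.22 for Trib1, -0.51 to 0.23 for Trib2, -0.43 to 0.0418 for Shmt2, -0.56 to 0.25 for Gpt2 and -0.73 to 0.41 for Stc2.

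No paired analysis was possible because the labels give no replicate numbers shared between the groups. Where a library is left out, a group of 2 is assumed to vary like the group of 3. At least 117 reads lay behind every member in every library.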
